A study of Mus musculus with 12 samples.

Results

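The Slc25 family of mitochondrial solute carriers was followed in MEF cells, fibroblasts that grow out of dissociated mouse embryos, after treatment with halofuginone (HF), a compound known to inhibit the prolyl-tRNA synthetase activity of EPRS. Members were all protein-coding genes of the count tables whose mapped symbol starts with Slc25a, and there were 47 of them among 21409 protein-coding gene IDs and 55536 gene IDs in all. HF cells had received 100 nM HF for 6 h in high-glucose DMEM with dialyzed fetal bovine serum, and control cells the same medium without HF for 6 h, so that both groups were kept in dialyzed serum. Total RNA and ribosome-protected fragments (RPF, footprints) were sequenced from each condition, with 3 libraries in each of the 4 groups. Total RNA libraries held 1017651 to 1697554 counts in HF cells and 718096 to 1295434 in control cells, and footprint libraries 562794 to 1958356 in HF cells and 724609 to 2527791 in control cells. Whether the 3 libraries of a group stem from separate cultures is not in the labels, and p-values therefore reflect library-to-library spread that may be technical only. MEF are a bulk culture here, in which fewer cells of a type and less RNA per cell cannot be told apart.

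Slc25 proteins sit mostly in the inner mitochondrial membrane, where each exchanges or imports a particular metabolite between cytosol and matrix. They carry ADP and ATP, phosphate, amino acids, carboxylic acids, nucleotides, cofactors, iron and glutathione, and so link cytosolic metabolism to respiration, heme synthesis and mitochondrial DNA and RNA synthesis. A few members lie elsewhere, such as the peroxisomal carrier Slc25a17 and the outer membrane protein Slc25a46. The series addresses the kinase GCN2 and mTORC1 under nutrient stress, and the comparison asks how transcripts and their ribosome occupancy differ after HF.

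The fibroblast label was checked against 9 fibroblast markers, of which 8 or 9 had counts in every library. Their summed RNA level was 9364 to 9684 in HF and 7791 to 8154 in control libraries, in CPM, that is, counts brought to a common library size with TMM factors. Their summed footprint level was 12380 to 12720 CPM in HF and 15960 to 16920 CPM in control libraries. The higher RNA sum came from Fn1, at 4832 to 5102 CPM in HF and 1528 to 1556 CPM in control libraries. Without Fn1 the RNA of the other 8 markers summed to 4521 to 4680 CPM in HF and 6263 to 6598 CPM in control libraries. In RNA 1 of the 7 tested fibroblast markers was higher (14.3%) and 4 were lower (57.1%) in HF cells. Of all tested genes 22.2% were higher and 21.4% lower in RNA. In footprints 2 of 8 were higher (25%) and 5 lower (62.5%), where 22.4% of all tested genes were higher and 20.9% lower. Pdgfrb fell most (RNA −2.30, edgeR adjusted p = 1.4e-06; footprints −2.87, edgeR adjusted p = 5e-08). Among these markers Col3a1 was near 0, with a mean RNA level of 0.586 CPM in HF and 5.69 CPM in control cells. Pdgfra was low too, at 6.50 CPM of RNA in HF and 5.27 CPM in control cells, and was not tested in RNA. Of 11 markers of other cell types, 1 to 5 had counts in a library, and Tubb3 was the only one of them with enough counts to be tested (RNA −0.81, edgeR adjusted p = 0.10; footprints −0.74, edgeR adjusted p = 0.017). The summed RNA level of these 11 was 15.7 to 29.0 CPM in HF and 17.9 to 41.1 CPM in control libraries, and their summed footprint level was 25.1 to 64.5 CPM in HF and 59.0 to 85.8 CPM in control libraries. Krt8, Pecam1 and Adipoq were at 0 in all 12 libraries. The part that these markers play in the carriers' values was not tested.

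Of the 47 members, 8 had 0 counts in all 12 libraries, among them the testis ADP/ATP carrier Slc25a31 and the glutamate carrier Slc25a18. A further 11 had too few counts to be tested, with 2 to 111 counts over the 12 libraries together. There were 28 members with enough counts for the RNA test and 26 for the footprint test, all 26 also in the first set. RNA passed the edgeR quasi-likelihood test (adjusted p under 0.05) for 14 of the 28, with 6 higher and 8 lower in HF cells, where 43.7% of all 9145 tested genes were called, 22.2% higher and 21.4% lower. Footprints passed for 10 of the 26, with 4 higher and 6 lower, where 43.3% of 8373 protein-coding genes were called, 22.4% higher and 20.9% lower. Shares of calls in the family were thus near those of all genes, at 50% in RNA and 38.5% in footprints, and the median log2 fold change of its tested members was 0.08 in RNA and 0.05 in footprints, against −0.02 over all tested genes in each assay. HF and control libraries did not overlap for 16 of 28 members in RNA (51.3% of all tested genes), 7 of them higher in HF (25.9% of all) and 9 lower (25.5% of all). In footprints they did not overlap for 13 of 26 (51.4% of all), 6 of them higher (25.2% of all) and 7 lower (26.2% of all). In RNA and footprints the calls of the ADP/ATP and phosphate, amino acid and carboxylate carriers were all downward. Those of the ATP-Mg/phosphate and of the nucleotide and cofactor carriers were all upward in these 2 assays. The groups are small, with 2 to 7 tested members in RNA and 2 to 6 in footprints.

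**Figure D1:**
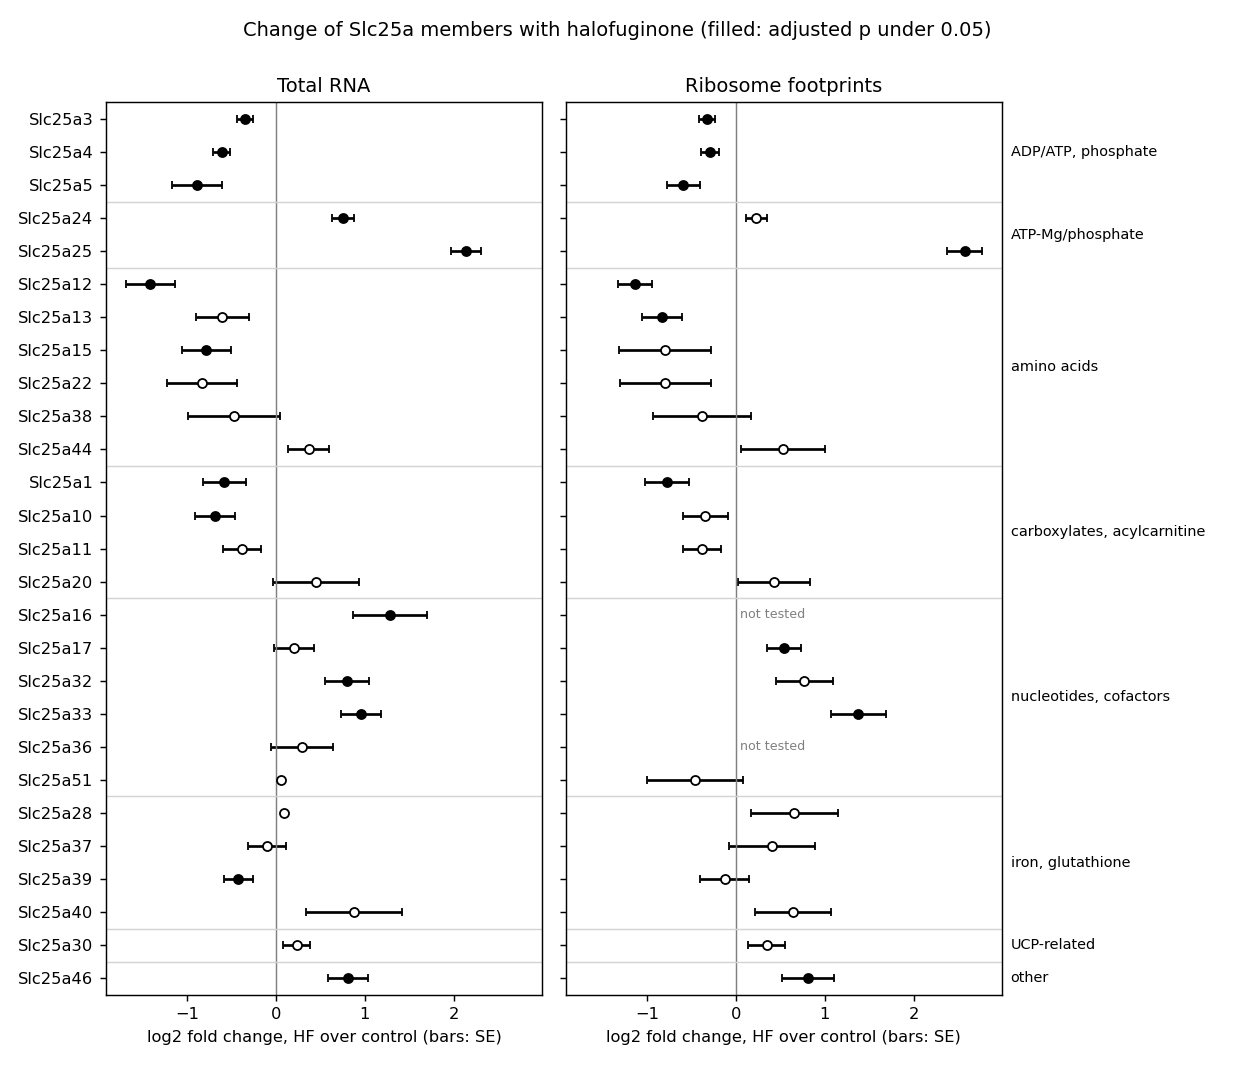
Log2 fold changes, HF over control, of 27 members tested in total RNA (left) and of 25 tested in footprints (right), grouped by substrate from top to bottom. Bars are standard errors, left out for the 2 RNA values nearest 0 (Slc25a51 and Slc25a28), filled points have an edgeR adjusted p under 0.05, and Slc25a25 lies farthest to the right in both panels while Slc25a12 lies farthest to the left.

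The ATP-Mg/phosphate carriers held the largest change of the family. These proteins, most of them regulated by calcium, exchange ATP-Mg for phosphate and so adjust the adenine nucleotide content of the matrix. Slc25a25 (ENSMUSG00000026819, chromosome 2 from 32414487 to 32451470, GRCm38) had 231, 259 and 203 CPM of RNA in the 3 HF libraries, against 49.9, 60.6 and 48.3 CPM in the 3 control libraries. Its footprints stood at 221, 214 and 176 CPM in HF libraries, against 33.2, 28.2 and 47.8 CPM in control libraries. Every HF library lay above every control library in both assays, by a wide margin. RNA was 4.39-fold higher in HF cells (log2 fold change 2.14, SE 0.17, edgeR adjusted p = 2.1e-17), and footprints were 5.96-fold higher (2.58, SE 0.20, edgeR adjusted p = 1.4e-12). The gene span overlaps that of the protein-coding gene Naif1, and the sources used here do not say how reads in overlaps were counted.

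Slc25a24, the other member of this group that could be tested (ENSMUSG00000040322, chromosome 3 from 109123149 to 109168409), changed in RNA but not to the same extent in footprints. Its RNA level was 358, 350 and 354 CPM in HF libraries, against 233, 173 and 216 CPM in control libraries. Its footprint level was 391, 340 and 426 CPM in HF libraries, against 319, 342 and 326 CPM in control libraries. The RNA values did not overlap, whereas among footprints HF library 2 lay within the range of the controls. The RNA log2 fold change was 0.76 (SE 0.12, edgeR adjusted p = 2.9e-07), and the footprint value was 0.23 (SE 0.12, edgeR adjusted p = 0.11). Slc25a23 had 2 RNA counts in HF and 2 in control cells, and Slc25a41 had 0 counts, so neither was tested.

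RefSeq lists 3 starts for Slc25a25 on GRCm38.p6, and the deposited counts do not separate them. The 250 bases before a start are shown for the start farthest upstream (chr2:32451471-32451720, minus strand) and the start farthest downstream (chr2:32424067-32424316, minus strand), because this gene carries the largest change of the family. The window of Slc25a33 (chr4:149774268-149774517, minus strand), the member with the next largest rise in footprints, is shown beside them. Capitals mark the cAMP response element TGACGTCA, the E-box CACGTG and the CCAAT box (CCAAT, or ATTGG where it lies on the other strand), each searched on both strands, and no marked match overlaps another.
Slc25a25, upstream start: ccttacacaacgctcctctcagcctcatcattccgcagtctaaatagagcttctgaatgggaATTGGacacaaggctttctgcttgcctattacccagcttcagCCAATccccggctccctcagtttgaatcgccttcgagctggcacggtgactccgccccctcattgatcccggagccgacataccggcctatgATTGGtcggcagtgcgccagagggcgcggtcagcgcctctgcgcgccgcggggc
Slc25a25, downstream start: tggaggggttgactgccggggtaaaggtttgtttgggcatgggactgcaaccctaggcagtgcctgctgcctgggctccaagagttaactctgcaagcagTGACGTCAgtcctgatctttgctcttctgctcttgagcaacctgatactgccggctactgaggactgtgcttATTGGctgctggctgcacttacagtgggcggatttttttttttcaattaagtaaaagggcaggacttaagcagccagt
Slc25a33: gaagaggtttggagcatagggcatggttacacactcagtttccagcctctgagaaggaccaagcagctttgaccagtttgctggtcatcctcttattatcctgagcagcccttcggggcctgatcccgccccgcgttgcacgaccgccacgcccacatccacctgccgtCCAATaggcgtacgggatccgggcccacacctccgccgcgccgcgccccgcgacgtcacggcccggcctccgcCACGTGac

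The cAMP response element stands 150 to 143 bases before the downstream start of Slc25a25. That motif was found in 2 of 46 windows of members, the other being that of Slc25a36, and in 1.55% of all 32851 RefSeq windows of the same length. Among windows of protein-coding genes the share was 1.92%. The composite element of C/EBP and ATF factors, TGATGNAA, was searched in the same way and was found in 0 of the 46 member windows and in 3.45% of all windows. For windows of protein-coding genes its share was 3.18%. These are matches of letters in a window and say nothing about binding.

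Carriers of nucleotides and cofactors had 3 of 7 tested members higher in RNA and 2 of 5 higher in footprints, and the rest did not pass. These are 42.9% and 40% of the tested members, where 22.2% of all genes were higher in RNA and 22.4% in footprints. Slc25a33, a pyrimidine nucleotide carrier, had 80.9, 90.4 and 87.1 CPM of RNA in HF libraries, against 54.7, 38.1 and 37.8 CPM in control libraries. Its footprints stood at 41.1, 71.9 and 62.6 CPM in HF libraries, against 19.5, 28.8 and 14.0 CPM in control libraries. The groups did not overlap in either assay, and the spread among the HF footprint libraries was wide. Log2 fold changes were 0.96 in RNA (SE 0.23, edgeR adjusted p = 0.00036) and 1.38 in footprints (SE 0.31, edgeR adjusted p = 0.00049).

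Slc25a32, known as a carrier of folates and of FAD, had 58.0, 78.6 and 74.2 CPM of RNA in HF libraries, against 49.1, 42.3 and 28.3 CPM in control libraries. Its RNA rose by a log2 fold change of 0.80 (SE 0.25, edgeR adjusted p = 0.0058), a call that ended without RNA control 3 (0.60, edgeR adjusted p = 0.061). Its footprints were 35.5, 51.9 and 36.0 CPM in HF libraries, against 19.5, 33.7 and 15.5 CPM in control libraries. The footprint libraries did not overlap, but the difference of 0.77 (SE 0.33) just missed the threshold (edgeR adjusted p = 0.053). It passed without RPF control 2 (1.15, edgeR adjusted p = 0.018).

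Slc25a16, a carrier linked in human and yeast studies to coenzyme A, had 35.2, 35.4 and 25.3 CPM of RNA in HF libraries, against 17.7, 2.82 and 15.7 CPM in control libraries. RNA control 2 was the low library, with 2 counts, and the rise of 1.29 (SE 0.41, edgeR adjusted p = 0.0087) fell short of the threshold without it (0.91, edgeR adjusted p = 0.061). Its footprints, 17 counts in HF and 37 in control cells, were too few to test. Slc25a17, the peroxisomal carrier of cofactors, had 123, 93.7 and 110 CPM of footprints in HF libraries, against 75.0, 70.5 and 85.7 CPM in control libraries, without overlap. Its RNA level was 56.3, 105 and 64.8 CPM in HF libraries, against 67.6, 71.9 and 55.7 CPM in control libraries, where the groups overlapped and HF library 2 stood above the rest. Footprints of Slc25a17 rose by 0.54 (SE 0.19, edgeR adjusted p = 0.018) while the RNA value was 0.20 (SE 0.23, edgeR adjusted p = 0.49). That footprint call ended without RPF control 1 (0.50, edgeR adjusted p = 0.086), RPF control 2 (0.47, edgeR adjusted p = 0.095) or RPF HF 1 (0.42, edgeR adjusted p = 0.13). The difference between its footprint and RNA changes did not itself pass (0.35, SE 0.30, edgeR adjusted p = 0.51). The pyrimidine nucleotide carrier Slc25a36 (RNA 0.29) and the NAD carrier Slc25a51 (RNA 0.06, footprints −0.46) did not pass.

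Slc25a46, an outer membrane protein that takes part in mitochondrial dynamics, was the only tested member among those of less defined transport function. Its RNA level was 92.4, 77.6 and 83.0 CPM in HF libraries, against 56.4, 53.6 and 33.6 CPM in control libraries. Its footprint level was 39.4, 46.8 and 45.5 CPM in HF libraries, against 27.2, 24.5 and 19.7 CPM in control libraries. Neither assay showed overlap between the groups. The log2 fold change was 0.81 in RNA (SE 0.23, edgeR adjusted p = 0.0024) and 0.82 in footprints (SE 0.29, edgeR adjusted p = 0.024). The footprint call ended without RPF control 2 (0.81, edgeR adjusted p = 0.066), RPF control 3 (0.70, edgeR adjusted p = 0.075) or RPF HF 2 (0.76, edgeR adjusted p = 0.059), with little change in the value.

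**Figure D2:**
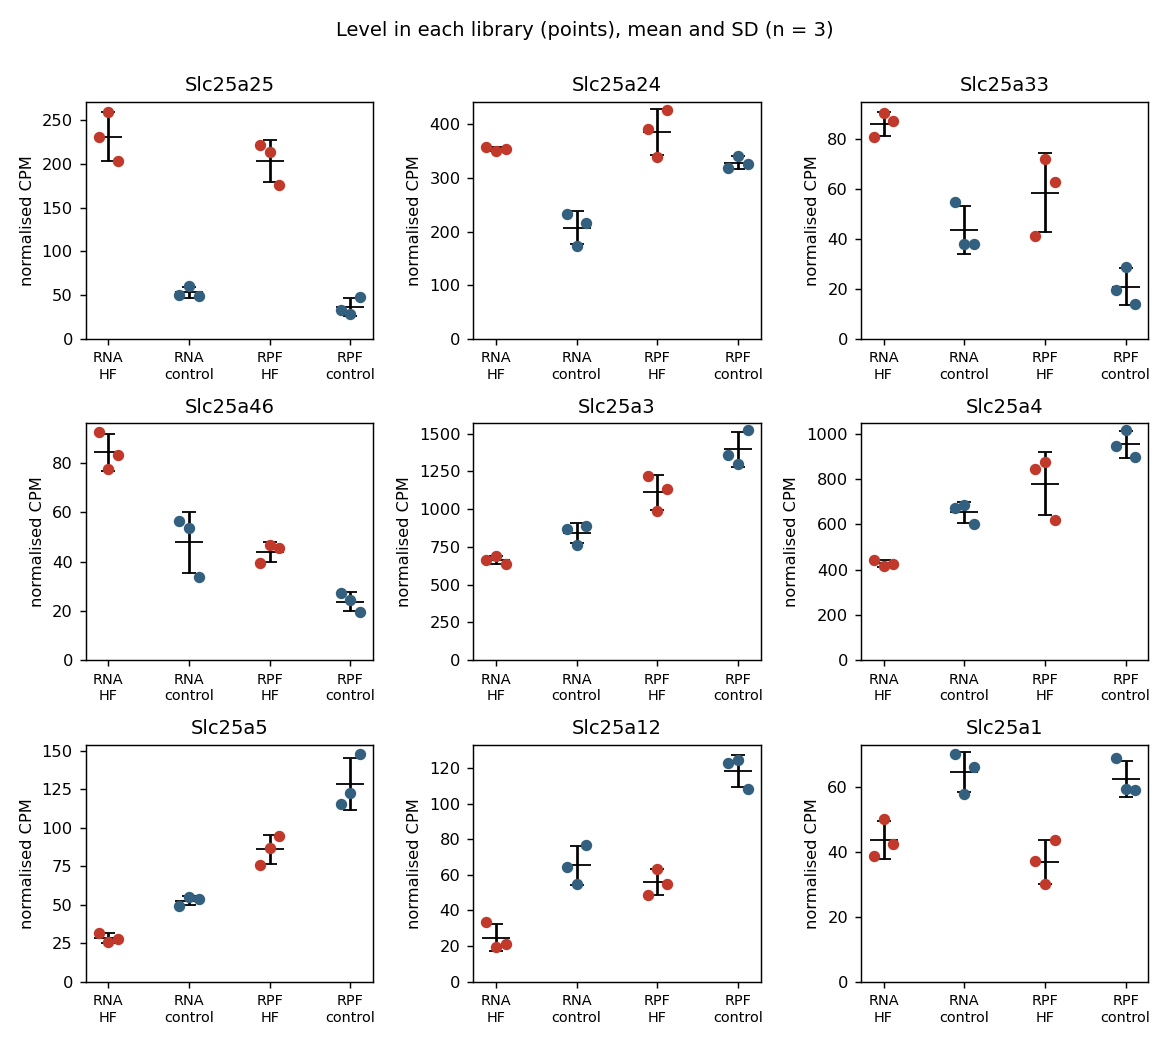
Normalised CPM in each library for the 8 members called in both assays and for Slc25a24, with HF in red and control in blue, RNA on the left and footprints (RPF) on the right of each panel. Points are libraries, horizontal marks are means and bars are SD (n = 3), and among the 8 called in both assays HF and control points do not overlap, with Slc25a25, Slc25a33 and Slc25a46 higher in HF and Slc25a3, Slc25a4, Slc25a5, Slc25a12 and Slc25a1 lower.

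The carriers that feed the ATP synthase fell in both assays, all 3 that were tested. Of all tested genes, 21.4% were lower in RNA and 20.9% in footprints. Slc25a3, which imports phosphate (ENSMUSG00000061904, chromosome 10 from 91116574 to 91124046), had 664, 689 and 638 CPM of RNA in HF libraries, against 870, 765 and 885 CPM in control libraries. Its footprints were 1218, 985 and 1130 CPM in HF libraries, against 1360, 1301 and 1523 CPM in control libraries. All HF libraries lay below all controls. The changes were small against their level but well measured, −0.34 in RNA (SE 0.09, edgeR adjusted p = 0.0016) and −0.32 in footprints (SE 0.09, edgeR adjusted p = 0.0041).

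Slc25a4 and Slc25a5 encode ADP/ATP carriers, which bring ADP into the matrix and ATP out. Slc25a4 RNA was 444, 415 and 424 CPM in HF libraries, against 672, 686 and 600 CPM in control libraries, a log2 fold change of −0.61 (SE 0.10, edgeR adjusted p = 4.4e-07). Its footprints were 843, 873 and 618 CPM in HF libraries, against 946, 1015 and 898 CPM in control libraries. HF library 3 was the lowest, while the other HF libraries lay just under the lowest control. The footprint change of −0.29 (SE 0.10, edgeR adjusted p = 0.025) was no longer called without RPF HF 3 (−0.16, edgeR adjusted p = 0.18) or RPF control 2 (−0.25, edgeR adjusted p = 0.11).

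Slc25a5 had 31.7, 25.5 and 27.7 CPM of RNA in HF libraries, against 49.1, 55.0 and 53.5 CPM in control libraries. Its footprints were 76.0, 87.0 and 94.8 CPM in HF libraries, against 115, 123 and 148 CPM in control libraries. The groups were apart in both assays, with −0.88 in RNA (SE 0.28, edgeR adjusted p = 0.0075) and −0.59 in footprints (SE 0.18, edgeR adjusted p = 0.0094). The footprint call ended without RPF HF 1 (−0.47, edgeR adjusted p = 0.074). ADP/ATP carriers resemble each other closely and have processed pseudogene copies, 1 of which (Slc25a5-ps) is in the tables, so reads may have been shared or dropped, and the levels of Slc25a4 and Slc25a5 are uncertain to that extent.

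Among carriers of amino acids, 2 of 6 tested members fell in RNA and 2 of 6 in footprints, and the other members of the group did not pass. These are 33.3% in each assay, where 21.4% of all tested genes were lower in RNA and 20.9% in footprints. Slc25a12 (aralar; ENSMUSG00000027010, chromosome 2 from 71274270 to 71367781) exchanges aspartate for glutamate in the malate-aspartate shuttle. It had 33.4, 19.7 and 21.2 CPM of RNA in HF libraries, against 64.4, 55.0 and 76.7 CPM in control libraries. Its footprints were 48.9, 63.6 and 55.0 CPM in HF libraries, against 123, 124 and 108 CPM in control libraries. In both assays the highest HF library lay well under the lowest control, and the fall was the largest of the family, at −1.41 in RNA (SE 0.28, edgeR adjusted p = 2.1e-05) and −1.13 in footprints (SE 0.20, edgeR adjusted p = 1.9e-05).

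Slc25a13 (citrin), the other aspartate/glutamate carrier, had 76.0, 35.1 and 39.8 CPM of footprints in HF libraries, against 92.5, 105 and 99.8 CPM in control libraries. HF library 1 was the high one of its group. Footprints fell by a log2 value of −0.83 (SE 0.23, edgeR adjusted p = 0.0034), and the value was −1.40 without RPF HF 1 (edgeR adjusted p = 9.7e-05). Its RNA was 24.6, 39.3 and 24.7 CPM in HF libraries, against 40.3, 49.3 and 44.1 CPM in control libraries. The RNA libraries did not overlap, yet the value of −0.60 (SE 0.30) did not pass (edgeR adjusted p = 0.095), except without RNA HF 2 (−0.83, edgeR adjusted p = 0.045).

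Slc25a15, the ornithine carrier of the urea cycle, had 41.3, 19.7 and 37.7 CPM of RNA in HF libraries, against 62.0, 39.5 and 68.3 CPM in control libraries. The groups overlapped, with RNA control 2 between the HF libraries. Its RNA change of −0.78 (SE 0.27, edgeR adjusted p = 0.017) was not called without RNA control 1 (−0.72, edgeR adjusted p = 0.086), RNA control 3 (−0.64, edgeR adjusted p = 0.097) or RNA HF 2 (−0.53, edgeR adjusted p = 0.14). Its footprints, at −0.79 (SE 0.52), did not pass (edgeR adjusted p = 0.22). The glutamate carrier Slc25a22 (RNA −0.83, footprints −0.79), the glycine carrier Slc25a38 (RNA −0.47, footprints −0.38) and the branched-chain amino acid carrier Slc25a44 (RNA 0.37, footprints 0.53) did not pass in either assay.

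Carriers of carboxylates had 2 of 4 tested members lower in RNA and 1 of 4 lower in footprints. Lower calls thus made up 50% in RNA and 25% in footprints, against 21.4% and 20.9% of all tested genes. Slc25a1, which exports citrate for lipid synthesis, had 38.7, 50.1 and 42.4 CPM of RNA in HF libraries, against 70.1, 57.8 and 66.2 CPM in control libraries. Its footprints were 37.1, 30.1 and 43.6 CPM in HF libraries, against 68.9, 59.4 and 59.0 CPM in control libraries. No HF library reached a control library in either assay. The RNA change of −0.58 (SE 0.24) passed narrowly (edgeR adjusted p = 0.044) and did not hold without RNA control 1 (−0.52, edgeR adjusted p = 0.14), RNA control 3 (−0.57, edgeR adjusted p = 0.087), RNA HF 1 (−0.47, edgeR adjusted p = 0.16) or RNA HF 3 (−0.53, edgeR adjusted p = 0.13). The footprint change of −0.77 (SE 0.24, edgeR adjusted p = 0.011) was not called without RPF control 1 (−0.71, edgeR adjusted p = 0.063).

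Slc25a10, the dicarboxylate carrier, had 44.0, 53.1 and 50.6 CPM of RNA in HF libraries, against 81.3, 66.2 and 88.2 CPM in control libraries, without overlap. Its RNA fell by 0.68 on the log2 scale (SE 0.22, edgeR adjusted p = 0.010), with the call lost without RNA control 3 (−0.60, edgeR adjusted p = 0.052) or RNA HF 1 (−0.58, edgeR adjusted p = 0.058). Its footprints, at 37.7, 41.8 and 53.1 CPM in HF libraries against 46.6, 63.7 and 53.4 CPM in control libraries, overlapped and did not pass (−0.34, SE 0.25, edgeR adjusted p = 0.28). The oxoglutarate carrier Slc25a11 (RNA −0.38, footprints −0.38) and the carnitine/acylcarnitine carrier Slc25a20 (RNA 0.45, footprints 0.44) did not pass.

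Of the iron and glutathione carriers, 1 of 4 fell in RNA (25%, against 21.4% of all tested genes) and none of 4 passed in footprints. Slc25a39, known for glutathione import, had 146, 78.6 and 128 CPM of RNA in HF libraries, against 170, 142 and 162 CPM in control libraries. HF library 2 was far below the others, and HF library 1 lay within the control range. The change of −0.42 (SE 0.17, edgeR adjusted p = 0.031) rested on several libraries: it was −0.21 without RNA HF 2 (edgeR adjusted p = 0.34), −0.37 without RNA control 1 (edgeR adjusted p = 0.15), −0.41 without RNA control 3 (edgeR adjusted p = 0.066) and −0.47 without RNA HF 3 (edgeR adjusted p = 0.061). Its footprints were 33.2, 33.5 and 49.3 CPM in HF libraries, against 46.2, 36.8 and 37.9 CPM in control libraries, and did not pass (−0.12, SE 0.28, edgeR adjusted p = 0.75). Its relative Slc25a40 (RNA 0.88, footprints 0.65) and the iron importers Slc25a37 (mitoferrin 1; RNA −0.10, footprints 0.41) and Slc25a28 (mitoferrin 2; RNA 0.09, footprints 0.66) did not pass. Slc25a30, a relative of the uncoupling proteins, had 185, 146 and 161 CPM of RNA in HF libraries, against 126, 149 and 145 CPM in control libraries, with overlap, and did not pass (0.23, SE 0.15, edgeR adjusted p = 0.20). Its footprints were 78.2, 75.3 and 87.2 CPM in HF libraries, against 53.9, 72.3 and 63.2 CPM in control libraries, and did not pass either (0.35, SE 0.21, edgeR adjusted p = 0.18).

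Slc25a3 and Slc25a4 made up a large part of the family's reads, so the summed level was also split. The RNA of all 47 members summed to 2983 ± 58.6 CPM in HF and 3101 ± 155 CPM in control cells (SD, n = 3 each). Slc25a3 and Slc25a4 together had 1091 ± 24.7 CPM in HF and 1493 ± 45.5 CPM in control cells, and the other members together 1891 ± 34.3 CPM in HF and 1608 ± 113 CPM in control cells. The first part was lower and the second higher in each HF library than in any control library. In footprints the sums were 1889 ± 159 CPM in HF and 2348 ± 63.7 CPM in control cells for Slc25a3 and Slc25a4, and 1473 ± 37.6 CPM in HF and 1322 ± 15.4 CPM in control cells for the rest. The higher sum of the rest came from Slc25a24 and Slc25a25, a split made after their values were seen. Without them the other 43 members summed to 1306 ± 11.5 CPM of RNA in HF and 1348 ± 88.3 CPM in control cells, with overlapping libraries. Their footprints summed to 884 ± 21.2 CPM in HF and 957 ± 3.40 CPM in control cells, lower in every HF library than in any control library. Slc25a3 and Slc25a4 held 36.5% to 36.8% of the family's RNA counts in HF and 47.4% to 49.5% in control libraries, and these sums are given as a description with no test.

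**Figure D3:**
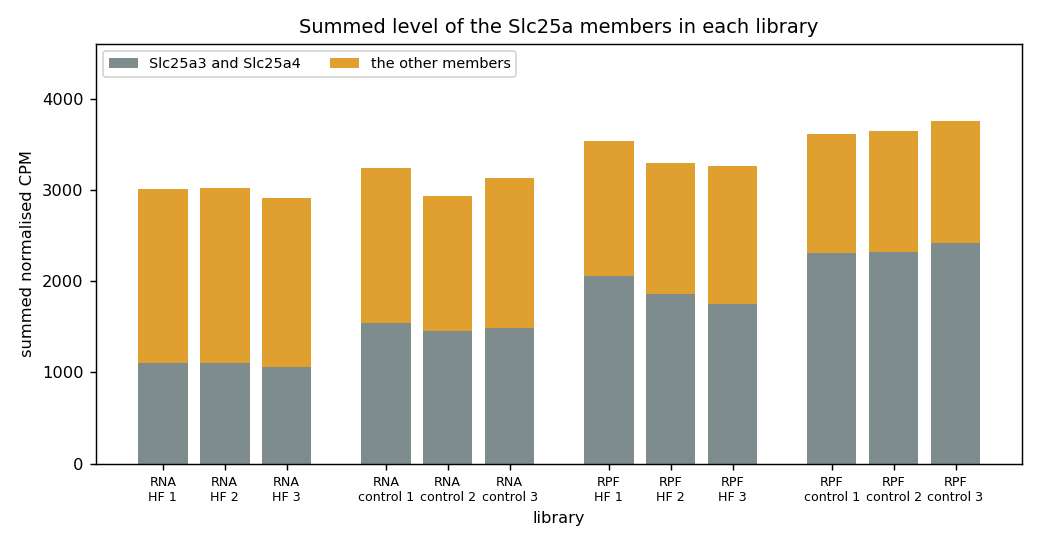
Summed normalised CPM of the 47 members in each of the 12 libraries, with HF left of control in each assay. The grey part is Slc25a3 plus Slc25a4, which is smaller in every HF library, at 1063 to 1108 CPM of RNA in HF against 1452 to 1542 CPM in control libraries, and the orange part is the sum of the other members, Slc25a24 and Slc25a25 included, which is larger in every HF library.

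Translational efficiency (TE), the change of footprints relative to the change of RNA, was tested as the assay by treatment term of 1 edgeR model over all 12 libraries. Of the 26 members tested, 1 was lower and 0 were higher in HF cells, where 14.4% of 7926 genes were called, 8.23% lower and 6.13% higher. At an unadjusted p under 0.05 there were 1 lower and 1 higher, against 1132 lower and 946 higher of all 7926 genes. DESeq2 called 1 lower and 0 higher of the members, and its share over all genes is not given here. The member called was Slc25a24, whose footprints gained less than its RNA (−0.52, SE 0.17, edgeR adjusted p = 0.028). That call was lost without RNA control 2 (−0.44, edgeR adjusted p = 0.081), RNA HF 1 (−0.50, edgeR adjusted p = 0.058), RNA HF 3 (−0.52, edgeR adjusted p = 0.056), RPF control 2 (−0.49, edgeR adjusted p = 0.072) or RPF HF 2 (−0.47, edgeR adjusted p = 0.064). Slc25a4, whose footprints fell less than its RNA, was at 0.33 (SE 0.14, edgeR adjusted p = 0.11) and passed without RPF HF 3 (0.45, edgeR adjusted p = 0.012). Slc25a51 (−0.55, SE 0.45, edgeR adjusted p = 0.48) and Slc25a28 (0.58, SE 0.60, edgeR adjusted p = 0.60) had differences as large as that of Slc25a24, with wider errors. For Slc25a25 the difference was 0.45 (SE 0.27, edgeR adjusted p = 0.29), and for Slc25a33 it was 0.41 (SE 0.37, edgeR adjusted p = 0.54).

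RNA and footprints were both called for 8 members, always in the same direction. Of the 26 members tested in all comparisons, 3 were higher in both assays (Slc25a25, Slc25a33 and Slc25a46) and 5 lower in both (Slc25a3, Slc25a4, Slc25a5, Slc25a12 and Slc25a1). Over all 7921 genes tested in all comparisons, 14.8% were higher in both, 12.1% lower in both and 1.57% called in opposite directions.

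**Figure D4:**
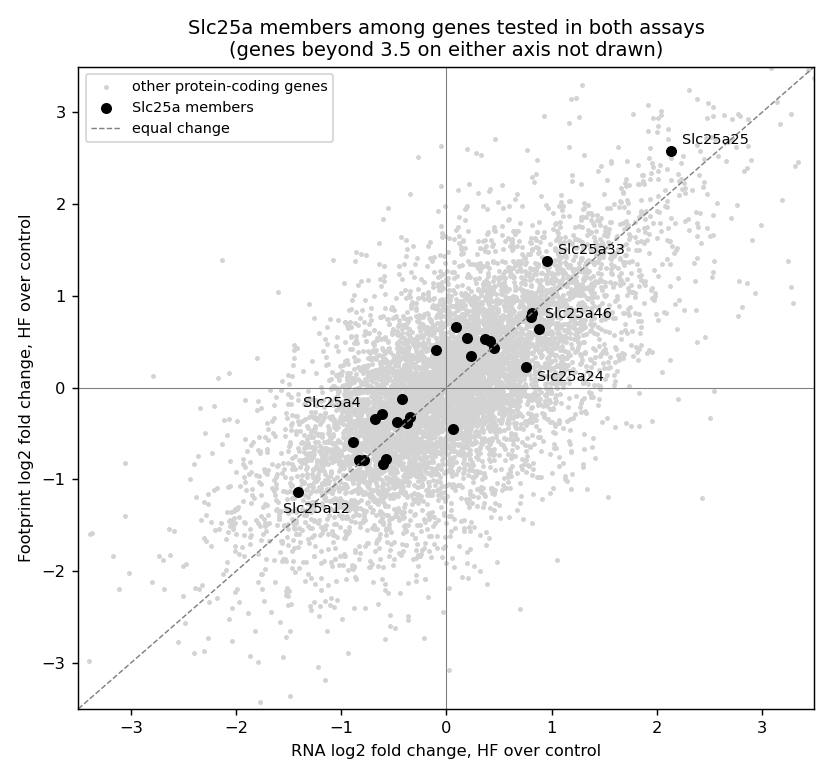
Footprint log2 fold change against RNA log2 fold change, HF over control, for the members tested in both assays (black) and the other protein-coding genes (grey), with the dashed line at equal change. Slc25a25 lies at 2.14 in RNA and 2.58 in footprints, and Slc25a24 below the line at 0.76 in RNA and 0.23 in footprints. Other members lie as far from the line without a TE call, among them Slc25a51 (0.06 in RNA, −0.46 in footprints) and Slc25a28 (0.09 in RNA, 0.66 in footprints).

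The ratio of a member's footprint CPM to its RNA CPM differed widely within the family, in HF and control cells alike. It was 3.04 in HF and 2.44 in control cells for Slc25a5, 2.25 in HF and 1.81 in control cells for Slc25a12, and 1.70 in HF and 2.23 in control cells for Slc25a13. The ratio was 0.105 in HF and 0.146 in control cells for Slc25a51, 0.256 in HF and 0.161 in control cells for Slc25a37, and 0.289 in HF and 0.261 in control cells for Slc25a15. The pyrimidine carrier Slc25a36 had 114 RNA counts in HF and 70 in control cells, but 15 footprint counts in HF and 4 in control cells. Such ratios also move with the share of a transcript that is untranslated and with reads lost to gene copies, neither of which was measured, so no ranking is drawn from them.

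Genes that work beside the carriers were taken from lists. Of the family members with other symbols, Ucp2, an uncoupling protein relative, rose in RNA (0.86, edgeR adjusted p = 0.0061) and in footprints (1.69, edgeR adjusted p = 7.2e-07). Mtch1, an outer membrane protein of the carrier fold, fell in both (RNA −0.82, edgeR adjusted p = 1.1e-06; footprints −0.84, edgeR adjusted p = 0.0011). Its relative Mtch2 was at −0.05 in RNA (edgeR adjusted p = 0.82) and rose in footprints (0.67, edgeR adjusted p = 1.2e-04), with a TE difference of 0.72 (edgeR adjusted p = 0.0057). The 2 remaining genes of that list were at 0 in all libraries.

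Of 22 other mitochondrial transport genes, 18 were tested, of which 6 fell in RNA and 12 did not pass. In footprints 1 of the 18 rose and 4 fell, and in TE 2 were higher. With both directions together, the list was called for 33.3% of its tested genes in RNA, 27.8% in footprints and 11.1% in TE. All genes had 43.7% in RNA, 43.3% in footprints and 14.4% in TE. By direction, the list had 33.3% lower and 0% higher in RNA, against 21.4% and 22.2% of all genes. In footprints it had 22.2% lower and 5.56% higher, against 20.9% and 22.4%. In TE it had 0% lower and 11.1% higher, against 8.23% and 6.13%. Letm1, an inner membrane protein of ion exchange, fell by 1.17 in RNA (edgeR adjusted p = 4.9e-05) and by 0.65 in footprints (edgeR adjusted p = 0.0071). Abcb10, an inner membrane ABC transporter, fell by 0.80 in RNA (edgeR adjusted p = 0.0024) and by 0.83 in footprints (edgeR adjusted p = 0.045). Smdt1, a subunit of the calcium uniporter, was higher in TE by 1.09 (edgeR adjusted p = 0.029), with footprints at 0.71 (edgeR adjusted p = 0.026) and RNA at −0.37 (edgeR adjusted p = 0.20). Tspo, an outer membrane protein, was higher in TE by 0.92 (edgeR adjusted p = 0.014), with a fall in RNA (−0.73, edgeR adjusted p = 0.0057) and footprints that did not pass (0.18, edgeR adjusted p = 0.36).

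The import route of carriers was made up of the TIM22 complex, its small chaperones and the receptor Tomm70a. In footprints 2 of 6 tested members were higher (33.3%) and 1 lower (16.7%), where 22.4% of all genes were higher and 20.9% lower. In RNA none of 6 passed (edgeR, 0 also at an unadjusted p under 0.05, and 0 by DESeq2). Of all 9145 tested genes, 43.7% were called in RNA by edgeR and 4601 had an unadjusted p under 0.05. The DESeq2 share over all genes is not given here. The sets of 6 differ, since Timm10b was tested in RNA alone and Agk in footprints alone. Timm22, the pore of the TIM22 complex, rose in footprints by 1.19 (edgeR adjusted p = 0.0014) and Timm10 by 0.87 (edgeR adjusted p = 0.0012). Their RNA values were also positive, at 0.31 for Timm22 (edgeR adjusted p = 0.32) and 0.43 for Timm10 (edgeR adjusted p = 0.23). Their TE differences did not pass, at 0.88 for Timm22 (edgeR adjusted p = 0.14) and 0.45 for Timm10 (edgeR adjusted p = 0.44). Tomm70a fell in footprints by 0.62 (edgeR adjusted p = 1.1e-04), with RNA at 0.18 (edgeR adjusted p = 0.20) and TE at −0.79 (edgeR adjusted p = 5.1e-04). Of 14 enzymes that use the carried metabolites, 13 were tested, with 3 higher and 3 lower in RNA and the same counts in footprints. These are 23.1% in each direction, near the 22.2% higher and 21.4% lower of all genes in RNA and the 22.4% higher and 20.9% lower in footprints. Acly, which cleaves the citrate that Slc25a1 exports, fell by 1.10 in RNA (edgeR adjusted p = 5.9e-11) and by 1.09 in footprints (edgeR adjusted p = 7.8e-10). Cpt1a, which makes acylcarnitines, rose in RNA (0.90, edgeR adjusted p = 0.0033) and in footprints (1.01, edgeR adjusted p = 1.7e-04). In the malate-aspartate shuttle, cytosolic Got1 rose in RNA (0.87, edgeR adjusted p = 2.6e-06) and in footprints (0.46, edgeR adjusted p = 0.0018), and mitochondrial Mdh2 fell in RNA (−0.52, edgeR adjusted p = 6.9e-05) and in footprints (−0.43, edgeR adjusted p = 1.8e-04). The other 2 shuttle enzymes of the list did not pass, Got2 at −0.29 in RNA (edgeR adjusted p = 0.16) and 0.05 in footprints (edgeR adjusted p = 0.81), and Mdh1 at −0.34 in RNA (edgeR adjusted p = 0.096) and −0.18 in footprints (edgeR adjusted p = 0.19).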

How the data were processed

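Per the labels' protocols, total RNA was fragmented by alkaline hydrolysis, and footprints were RNase I digests collected at the monosome peak of sucrose gradients. The authors deposited whole-number counts of reads per gene and library, without normalization, and the submitters' processing notes name Bowtie, HISAT2, HTSeq and the build GRCm38. Counting feature, strand setting and multiple-hit handling were not given in the sources used here. Low counts were mostly even: RNA control 1 had 1541 genes with 2 counts and 419 with 1. Of 55536 gene IDs, 55450 had a symbol and 38652 a gene type, matched by symbol to the RefSeq table of GRCm38.p6.

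Tests used R 4.3.3 and edgeR 4.0.16 (quasi-likelihood, TMM factors, filterByExpr with a minimum count of 10, Benjamini-Hochberg adjustment over all genes tested, threshold 0.05). The RNA test took all genes, and the footprint test protein-coding genes. TE was the assay by treatment term over 12 libraries, TMM factors being computed per assay. CPM values use the same TMM factors, and levels were not compared between genes, since no transcript lengths were used. SE is the absolute log2 fold change divided by the square root of F, left out under 0.1. The fits were tested on simulated data. DESeq2 1.42.0 was an alternative. No spike-in is described, so every change is relative to that of most genes. Promoter windows come from RefSeq on GRCm38.p6, with 46 windows for 36 of the 47 members, and the motifs were chosen with the results known. The values of 1 member are not reported here, though it is in the counts of members. The members and lists were chosen with earlier results of these data known. Values per library are given for members called in at least 1 comparison or whose mean log2 CPM reached 7 in an assay. From the other lists up to 4 called genes are named, those with the largest log2 changes.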

Additional observations from a re-analysis of the deposited data

Results flagged for a closer look

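The HF effect on Slc25a24 differed between the assays, with a footprint change minus RNA change of −0.52 (SE 0.17, edgeR adjusted p = 0.028). Its RNA was higher in 3 of 3 HF libraries than in any control library, while its footprints averaged 386 ± 43.7 CPM in HF and 329 ± 11.9 CPM in control cells (SD, n = 3 each) with overlap. The value kept its sign without any single library, between −0.64 and −0.44, but the call was lost in 5 of the 12 such fits (edgeR adjusted p = 0.056 to 0.081).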

How the results depend on the processing

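For 17 members followed over the settings, 304 of 311 values kept their direction and their side of the threshold under other factors, DESeq2, no filter, halved counts, protein-coding genes alone and the replicate block. DESeq2 called 5 members lower in RNA in place of 8, without Slc25a1 (adjusted p = 0.086), Slc25a15 (adjusted p = 0.056) and Slc25a39 (adjusted p = 0.11). Without a filter Slc25a1 (adjusted p = 0.12) and Slc25a39 (adjusted p = 0.068) were lost in RNA, and Slc25a32 footprints passed with halved counts (0.73, adjusted p = 0.039). The cause was not tested. With 1 library left out, 355 of 388 values kept direction and side. Members called lower in RNA then ran from 4 to 8, and higher in RNA from 5 to 6. In footprints lower calls ran from 5 to 6 and higher calls from 3 to 4, and in TE each ran from 0 to 1. Calls over all genes also fell in these fits, to 3361 to 3820 in RNA (3992 with all libraries). They fell to 2917 to 3589 in footprints (3622 with all) and to 888 to 1073 in TE (1138 with all). Same-numbered libraries did not deviate together (correlations of −0.03 to 0.02). With 3 libraries per group this cannot settle whether the numbers mark shared cultures, which the labels do not say. With the replicate block 3933 genes were called in RNA (3992 without), 3547 in footprints (3622 without) and 1083 in TE (1138 without), and Slc25a32 passed in footprints (0.85, adjusted p = 0.030). Slc25a38, Slc25a20 and Slc25a40 had 24 to 88 counts per group and were not called, and no detection limit was computed at these counts.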

Other observations

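The E-box CACGTG was present in 8 of 46 promoter windows of members (17.4%), against 6.02% of all 32851 windows, with windows of Slc25a1, Slc25a13, Slc25a14, Slc25a15, Slc25a31, Slc25a33 and Slc25a36. The CCAAT box was present in 21 of 46 windows (45.7%), against 33.8% of all and 35.4% of those of protein-coding genes. Both kinds of window belonged to members with higher and with lower values in HF cells, and no test was made.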
